A study of Mus musculus with 9 samples.

Results

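SR proteins, heterogeneous nuclear ribonucleoproteins (hnRNPs), CLK kinases and a few related RNA-binding proteins were followed in primary mouse cortical neurons. The genes were taken by symbol from the table of values: every numbered Srsf gene, every symbol that begins with Hnrnp, Clk1 to Clk4, and Cirbp, Rbm3, Tra2a and Tra2b, with a value above 1 in at least 3 of the 9 libraries. All 39 matching symbols passed, of 12923 genes that passed and were tested, and they hold 11 SR protein genes, 20 hnRNP genes, 4 CLK genes, 2 Tra2 genes and 2 cold-inducible genes. The rule used symbols and a minimum level and no difference between groups, though the gene families were picked with earlier results of these data known.

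The 9 libraries were made from poly(A) RNA of wild-type C57BL/6 cortical neurons that had been 6 days in culture. They formed 3 groups of 3: neurons held 7 hours in 0.2% oxygen with 10 nM of the thyroid hormone T3 (triiodothyronine) in the medium (hypoxia with T3), neurons held as long in the same low oxygen without the hormone (hypoxia), and untreated neurons in normal oxygen (normoxia). No group with T3 in normal oxygen was analysed here, so an effect of T3 outside hypoxia cannot be read from these values. Libraries are named by their column numbers, 11 to 13 in hypoxia with T3, 7 to 9 in hypoxia and 1 to 3 in normoxia. Whether the 3 libraries of each group are separate cultures is not in the labels, so the p-values weigh differences against a spread that may be technical.

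The messenger RNA of a neuron is cut and joined by the spliceosome, and SR proteins and hnRNPs decide which exons it uses. SR proteins carry RNA recognition motifs and a tail rich in arginine and serine, bind exonic enhancers and mostly favour exon inclusion, while many hnRNPs coat the nascent transcript and repress exons. CLK and SRPK kinases phosphorylate the tail and so set whether an SR protein sits in nuclear speckles or on RNA. Many SR and hnRNP genes also limit their own level through poison exons or retained introns, which the values here, 1 per gene, do not resolve.

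Values are the authors' TMM-normalized CPM, that is, read counts scaled to library sizes that TMM has adjusted. The columns therefore do not have equal sums (945822 in hypoxia 9 to 1091200 in normoxia 1). A log2 change is the difference between group means of log2(CPM + 1), with the SE of a limma fit to all genes, and a gene is called higher or lower when its p-value, adjusted over the 12923 genes, is under 0.05. Hypoxia 7 was the shallowest library, with 17182338 reads recovered from its values, and normoxia 2 the deepest, with 33937842, so 1 read was worth 0.0302 to 0.0565 CPM, far under the lowest value of any of the 39 genes (12.4 CPM, Clk4 in normoxia 1). The labels were checked on known targets. Hk2, Slc2a1, Vegfa, Pdk1, Bnip3 and Egln3, targets of the hypoxia-inducible factors, were all higher in hypoxia. Of 3 T3 targets, Hr, Klf9 and Dbp, 2 were called higher with T3 against hypoxia. Hr stood at 32.8 ± 2.36 CPM in hypoxia with T3 and 4.70 ± 0.435 CPM in hypoxia (SD, n = 3 each). Klf9 stood at 51.5 ± 5.35 and 21.7 ± 2.75 CPM in the same order, and Dbp at 6.24 ± 0.626 and 3.91 ± 0.782 CPM. Hr, Klf9, Vegfa and Rn45s hold values that are not whole reads. No value of the 39 genes was off a whole read. All 6 pan-neuronal markers were present, all 6 microglia and all 4 endothelial markers were under the minimum level, and the summed markers of neurons were 4885 to 4952 CPM in hypoxia with T3, 4979 to 5488 CPM in hypoxia and 6568 to 7052 CPM in normoxia. Most of that gap is Tubb3, which averaged 701 CPM in hypoxia with T3, 1104 CPM in hypoxia and 2372 CPM in normoxia. In hypoxia against normoxia Tubb3, Syt1 and Rbfox3 were lower and Map2, Snap25 and Stmn2 did not pass, with a median log2 change of -0.19 over the 6 markers. With T3 against normoxia only Tubb3 and Syt1 were lower, with a median of -0.01. The 8 astrocyte markers summed to 463 to 609 CPM in hypoxia with T3, 372 to 606 CPM in hypoxia and 304 to 406 CPM in normoxia. The 6 oligodendrocyte markers summed to 112 to 159 CPM in hypoxia with T3, 72.8 to 174 CPM in hypoxia and 37.6 to 124 CPM in normoxia. The 6 progenitor markers summed to 63.5 to 117 CPM in hypoxia with T3, 39.2 to 119 CPM in hypoxia and 10.3 to 86.3 CPM in normoxia. The precursor of ribosomal RNA, Rn45s, took 1.04% to 2.65%, 1.04% to 1.33% and 3.25% to 4.21% of the values in the same order of groups. In bulk RNA fewer cells of a type and less RNA per cell cannot be told apart, and the part of these shifts in the results below was not tested.

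Setting hypoxia beside normoxia addresses the answer of neurons to low oxygen. In hypoxia 5 of 11 SR genes rose (Srsf6, Srsf2, Srsf7, Srsf1 and Srsf5), as did Tra2a, Clk3 and Hnrnpc, while Cirbp, Hnrnpdl, Hnrnph3, Hnrnpa3 and Hnrnpa2b1 fell. The largest rise was 1.63-fold, in the group means of Srsf6, and the deepest fall was to 0.74 of the normoxia mean, in Cirbp. In all, 8 of the 39 genes were called higher and 5 lower. Of all genes tested, 14.3% were called higher, 19.3% lower in this comparison and 33.6% either way, so the count over the 39 genes is near the background. Groups did not overlap in 9 higher and 9 lower of the 39 genes, where 20.7% of all genes were apart upwards and 27.0% downwards. The median log2 change was 0.17 over the SR genes, -0.05 over the hnRNPs and 0.00 over all genes tested.

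The split between rises and falls depends on whether columns are brought to equal sums. With median-of-ratios scaling the counts stayed at 8 higher and 5 lower, and the median log2 change over all genes was 0.009. Once columns were rescaled to equal sums, the median log2 change over all genes was 0.13. Of the 12923 genes tested, 3974 were then called higher and 1232 lower. Then 17 of the 39 genes were higher and 2 lower (Cirbp and Hnrnpdl), and the median over the hnRNPs turned from -0.05 to 0.09. The SR genes were then 8 higher of 11, with a median of 0.31. The count of lower members also rested on single libraries, at 2 without normoxia 3, 3 without hypoxia 7 and 2 without hypoxia 9.

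**Figure D1:**
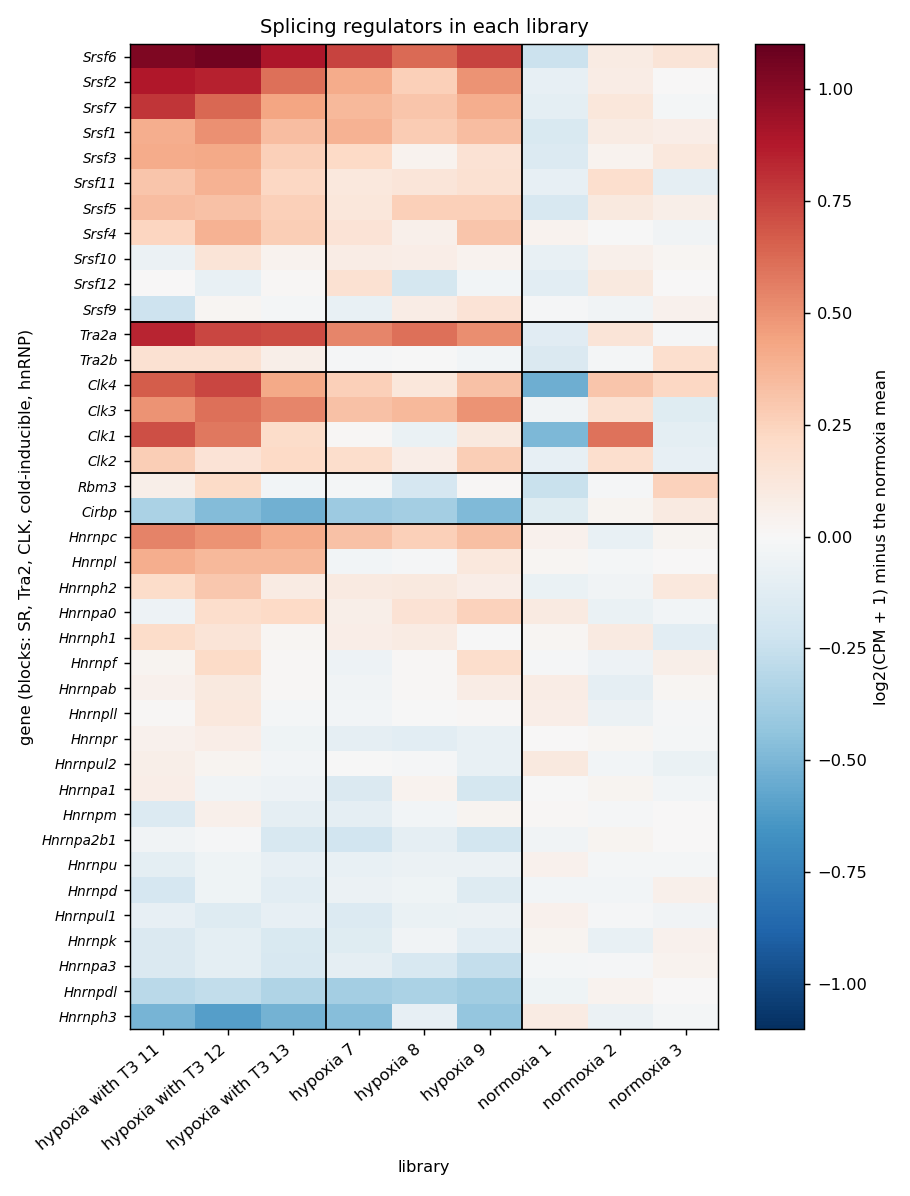
Each row is a gene and each column a library; colour is log2(CPM + 1) minus the normoxia mean of that gene. The SR, Tra2 and CLK blocks are mostly red in hypoxia with T3 and paler red in hypoxia, while Cirbp, Hnrnpdl and Hnrnph3 are blue in both.

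Promoter windows, the 250 bases before the transcription start in RefSeq annotation of GRCm38.p6, were on hand for 35 of the 39 genes. They were searched on both strands for 4 short motifs: ACGTG, the core of the hypoxia-inducible factor site, TCCCCGCC, known as the mild-cold response element, GAANNTTC, the core of a heat shock element, and TGACGTCA, the cyclic AMP response element. TGACGTCA does not contain ACGTG, and a CACGTG counts on both strands. ACGTG was in at least 1 window of 12 of the 35 genes (34.3%), against 25.4% of the 9687 tested genes with a window and 18.5% of all genes in the promoter table. TCCCCGCC was in 4 of 35 (11.4%, against 10.3% of tested genes and 5.37% of all), GAANNTTC in 5 (14.3%, against 5.94% and 7.73%) and TGACGTCA in 2 (5.71%, against 3.26% and 1.77%). A match is a description of letters and not a binding site.

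Windows of 5 genes that carry the results are given, Srsf6, Srsf2 and Tra2a as the genes that rose most in hypoxia with T3 against normoxia, Hnrnpl as the member with the smallest adjusted p with T3 against hypoxia and Cirbp as the deepest fall in hypoxia. They read 5′ to 3′ on the strand of the gene, with motif letters in capitals. Srsf6 (chr2:162931258-162931507, plus) holds ACGTG, Tra2a (chr6:49264053-49264302, minus) TGACGTCA, Hnrnpl (chr7:28810640-28810889, plus) GAANNTTC and the upstream window of Cirbp (chr10:80167589-80167838, plus) TCCCCGCC. Srsf2 (chr11:116853095-116853344, minus) holds none of the 4. The windows of Hnrnpl and Cirbp lie inside these genes as annotated in GENCODE M21, where both genes start further upstream.
Srsf6: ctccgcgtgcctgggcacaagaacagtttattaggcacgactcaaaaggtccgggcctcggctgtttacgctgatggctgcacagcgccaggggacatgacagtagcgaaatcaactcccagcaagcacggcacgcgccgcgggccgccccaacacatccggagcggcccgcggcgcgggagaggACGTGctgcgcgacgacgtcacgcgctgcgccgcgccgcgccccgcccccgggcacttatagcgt
Srsf2: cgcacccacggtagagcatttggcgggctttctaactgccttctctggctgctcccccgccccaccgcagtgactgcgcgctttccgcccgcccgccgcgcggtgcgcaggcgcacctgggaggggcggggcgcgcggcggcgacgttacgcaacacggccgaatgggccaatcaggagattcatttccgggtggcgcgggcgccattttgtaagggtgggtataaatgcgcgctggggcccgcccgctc
Tra2a: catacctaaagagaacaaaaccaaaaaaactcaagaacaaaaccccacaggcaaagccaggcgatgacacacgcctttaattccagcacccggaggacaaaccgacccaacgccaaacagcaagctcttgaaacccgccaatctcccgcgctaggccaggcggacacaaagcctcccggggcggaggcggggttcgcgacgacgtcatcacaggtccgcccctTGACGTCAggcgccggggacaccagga
Hnrnpl: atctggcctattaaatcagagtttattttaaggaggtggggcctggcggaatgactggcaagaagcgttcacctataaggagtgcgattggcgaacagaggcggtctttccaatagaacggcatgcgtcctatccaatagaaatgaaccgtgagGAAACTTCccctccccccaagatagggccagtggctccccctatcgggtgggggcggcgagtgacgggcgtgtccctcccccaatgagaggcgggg
Cirbp: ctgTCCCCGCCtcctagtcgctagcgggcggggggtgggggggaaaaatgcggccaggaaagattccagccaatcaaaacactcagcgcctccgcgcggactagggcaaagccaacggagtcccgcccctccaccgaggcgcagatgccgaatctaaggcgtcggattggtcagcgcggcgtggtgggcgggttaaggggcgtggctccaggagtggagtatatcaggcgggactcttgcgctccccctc
Of the other genes that rose in hypoxia, Clk3 also has ACGTG and Srsf7 TCCCCGCC, while Srsf1, Srsf5 and Hnrnpc have none of the 4. Hnrnpa2b1 and Hnrnpa3, which fell, hold ACGTG too. The median genomic span was 7228 bases for the SR genes and 12964 bases for the hnRNPs, against 25524 bases for the 12298 tested genes with a span in GENCODE M21.

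Srsf6 (SRp55), an SR protein with a pair of RNA recognition motifs, lies at chr2:162931528-162937121 on the plus strand of GRCm38. It had 159, 146 and 159 CPM in hypoxia 7, 8 and 9, against 80.1, 101 and 105 CPM in normoxia 1, 2 and 3. All hypoxia libraries were above all normoxia libraries, and the log2 change was 0.71 (SE 0.09, adjusted p = 0.00034). Srsf2 (SC35), an SR protein found in nuclear speckles, had 154, 139 and 164 CPM in hypoxia, against 109, 123 and 116 CPM in normoxia. Its groups did not overlap either, and the log2 change was 0.39 (SE 0.08, adjusted p = 0.0051). The Srsf2 gene, chr11:116849901-116853094 on the minus strand, shares 748 exonic bases with Mettl23 and Mfsd11 on the other strand. The library kit kept strand but the sources used here do not say whether the counting did, so reads of these genes may be mixed.

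Srsf7 (9G8), which also carries a zinc knuckle and takes part in mRNA export, had 89.3, 86.0 and 92.3 CPM in hypoxia, against 64.5, 76.2 and 68.8 CPM in normoxia (log2 change 0.35, SE 0.09, adjusted p = 0.011). Srsf1 (SF2/ASF), the founding member of the family, had 186, 173 and 180 CPM in hypoxia, against 127, 151 and 150 CPM in normoxia (0.34, SE 0.07, adjusted p = 0.0054). In both genes every hypoxia library was above every normoxia library. Srsf5 had 152, 168 and 167 CPM in hypoxia, against 123, 151 and 146 CPM in normoxia. These values were chosen for print after they were seen. Hypoxia 7 lay just above normoxia 2, and the log2 change was 0.22 (adjusted p = 0.043). The call was lost without normoxia 1 (adjusted p = 0.13), hypoxia 8 (0.12), hypoxia 9 (0.12), or T3 library 11 (0.05) or 12 (0.062). It was also lost with only the 2 groups compared (0.067), with no filter on low values (0.072) and without a variance trend (0.08).

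The other 6 SR genes did not pass. Srsf4 was at a log2 change of 0.17 with groups that did not overlap (adjusted p = 0.08), Srsf3 and Srsf11 were at 0.14 each, and Srsf10, Srsf9 and Srsf12 were at 0.06, 0.05 and -0.02. Srsf4 passed without hypoxia 8 (adjusted p = 0.036) and by DESeq2 (0.049), and Srsf11 passed without normoxia 2 (0.022). No SR gene was called lower by limma, and at an unadjusted p under 0.05 there were 6 higher and 0 lower, with 5 and 0 by edgeR and 6 and 0 by DESeq2. Normoxia 1 was low for these genes: its mean over the 11 SR genes, relative to the normoxia mean, was -0.11 on the log2 scale, against 0.08 and 0.03 in normoxia 2 and 3 and 0.17 to 0.28 in the hypoxia libraries. The same library was the lowest of the 9 in several glial and progenitor markers, but not in others such as Slc1a2, Glul, Ndrg2 and Mbp. Olig1, of the oligodendrocyte lineage, had 20.1, 72.3 and 79.9 CPM in hypoxia 7, 8 and 9, against 5.62, 25.7 and 56.9 CPM in normoxia 1, 2 and 3. The proliferation marker Mki67 had 9.72, 27.4 and 32.7 CPM in hypoxia, against 2.37, 11.2 and 27.2 CPM in normoxia. The astrocyte transporter gene Slc1a3 had 16.4, 52.9 and 82.5 CPM in hypoxia, against 5.00, 22.1 and 45.1 CPM in normoxia. These 3 genes were chosen after their values were seen, and their groups overlapped. Hypoxia 7, the lowest of its group in these 3 genes, had a mean of 0.24 over the SR genes, against 0.17 in hypoxia 8. A link between such markers and the SR genes was not tested. Without normoxia 1, 4 of the 11 SR genes were higher in hypoxia, with a median log2 change of 0.13.

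Tra2a and Tra2b are SR-like proteins named after the fly gene transformer 2, and both bind purine-rich enhancers. Tra2a had 59.6, 62.6 and 58.6 CPM in hypoxia, against 37.3, 45.2 and 40.3 CPM in normoxia. Each hypoxia library was above each normoxia library, with a log2 change of 0.55 (SE 0.07, adjusted p = 0.0004). Tra2b had 95.8, 96.4 and 94.7 CPM in hypoxia, inside the range of 86.3, 95.2 and 110 CPM in normoxia (log2 change -0.02, SE 0.08, adjusted p = 0.89). The difference between the paralogs was not tested.

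Of the CLK kinases, which phosphorylate the tails of SR proteins, only Clk3 passed in hypoxia. It had 80.7, 82.6 and 91.4 CPM in hypoxia, against 62.9, 72.7 and 58.6 CPM in normoxia, without overlap (log2 change 0.39, SE 0.08, adjusted p = 0.0041). Exons of Clk3, at chr9:57750624-57765860 on the minus strand, share 1284 bases with Edc3 on the other strand. Clk2 had 34.9, 32.0 and 36.9 CPM in hypoxia, against 28.4, 34.6 and 28.5 CPM in normoxia (0.18, adjusted p = 0.13), and without normoxia 2 it passed (0.27, adjusted p = 0.034). Clk1 and Clk4 varied most within normoxia. Clk1 had 38.1, 35.9 and 40.6 CPM in hypoxia, against 26.5, 57.8 and 35.0 CPM in normoxia (0.02, SE 0.22, adjusted p = 0.96). Clk4 had 22.4, 20.2 and 23.3 CPM in hypoxia, against 12.4, 23.0 and 21.8 CPM in normoxia (0.24, SE 0.18, adjusted p = 0.34). For both, normoxia 1 was the lowest of all 9 libraries and the hypoxia values fell within the normoxia range, except that Clk4 in hypoxia 9 lay just above it.

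**Figure D2:**
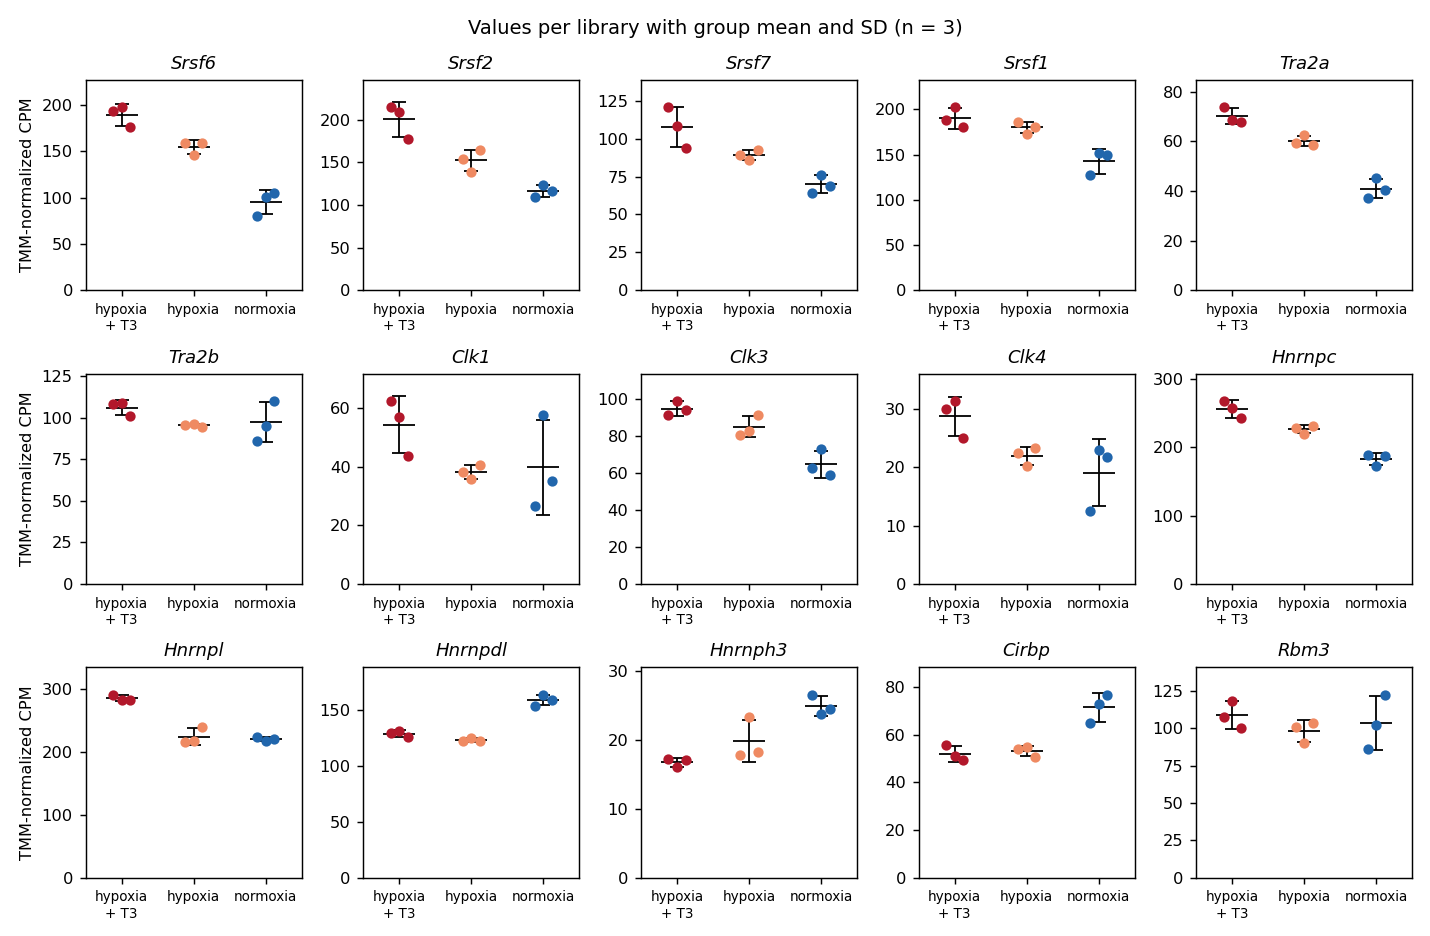
Points are the TMM-normalized CPM of each library, and the bar and whiskers are the mean and SD of the 3 libraries of a group. The means of Srsf6, Srsf2, Srsf7 and Tra2a step down across hypoxia with T3, hypoxia and normoxia. Between hypoxia with T3 and hypoxia Srsf2 passed, but Srsf6, Srsf7 and Tra2a did not. Hnrnpl stands apart in hypoxia with T3, and Cirbp and Hnrnpdl are highest in normoxia.

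Cirbp and Rbm3 are small glycine-rich RNA-binding proteins that mild cold induces. In human cells both have been reported to answer low oxygen, and the direction reported there was not compared with the values here. Cirbp, at chr10:80165985-80172786 on the plus strand, had 53.8, 54.7 and 50.6 CPM in hypoxia, against 64.9, 73.0 and 76.7 CPM in normoxia. All hypoxia libraries were below all normoxia libraries and the log2 change was -0.42 (SE 0.07, adjusted p = 0.0018). Rbm3, on chromosome X, had 101, 89.9 and 103 CPM in hypoxia, against 86.3, 102 and 122 CPM in normoxia. Its groups overlapped and it did not pass (-0.07, SE 0.11, adjusted p = 0.68).

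Among the 20 hnRNP genes 1 rose and 4 fell in hypoxia, a share of falls at that over all genes tested (19.3%) and a smaller share of rises (14.3% over all genes). Hnrnpc, which binds uridine tracts of nascent transcripts, had 229, 219 and 231 CPM in hypoxia, against 189, 172 and 187 CPM in normoxia (log2 change 0.31, SE 0.05, adjusted p = 0.002). Hnrnpdl, a relative of the AU-rich element binding protein of Hnrnpd, had 123, 125 and 122 CPM in hypoxia, against 154, 164 and 160 CPM in normoxia (-0.37, SE 0.05, adjusted p = 0.00027). Both genes were without overlap between groups and kept their calls in every alternative tried. Hnrnph3, of the H family that binds guanine tracts, had 17.8, 23.3 and 18.4 CPM in hypoxia, against 26.6, 23.8 and 24.5 CPM in normoxia (-0.33, SE 0.10, adjusted p = 0.029). Hypoxia 8 lay close under normoxia 2, and the call was lost without normoxia 1 (adjusted p = 0.095), normoxia 3 (0.054), hypoxia 7 (0.098) or hypoxia 9 (0.1), and with equal column sums (0.14).

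Hnrnpa3 and Hnrnpa2b1, of the A/B family that represses exons, moved by small amounts. Hnrnpa3 had 256, 244 and 229 CPM in hypoxia, against 270.1, 272 and 282 CPM in normoxia (log2 change -0.18, adjusted p = 0.021), and the call was lost without normoxia 3 (0.066) or hypoxia 9 (0.084). Hnrnpa2b1 had 294, 318 and 296 CPM in hypoxia, against 332, 348 and 343 CPM in normoxia (-0.17, adjusted p = 0.033), and the call was lost without normoxia 2 (0.094), normoxia 3 (0.075), hypoxia 7 (0.097) or hypoxia 9 (0.1). With equal column sums neither passed, at -0.04 and -0.03. Without a variance trend neither passed (adjusted p = 0.054 and 0.074), nor did Hnrnpa2b1 with no filter on low values (0.053). The other 15 hnRNP genes did not pass, with log2 changes from -0.10 in Hnrnpk, Hnrnpr, Hnrnpul1 and Hnrnpa1 to 0.16 in Hnrnpa0. Without hypoxia 8 Hnrnpa1 passed (-0.17, adjusted p = 0.044). Hnrnpa1 and several other hnRNP and SR genes have processed pseudogene copies, between which reads can be divided, so small differences in them are uncertain.

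Setting hypoxia with T3 beside hypoxia addresses the effect of the hormone in neurons short of oxygen. With T3 Hnrnpl and Srsf2 rose, and no gene of the 39 fell. Srsf6, Srsf7, Srsf3 and Tra2a stood above all hypoxia libraries without passing. Of all genes tested, 2.73% were called higher, 3.75% lower and 6.48% either way, so 2 of 39 is close to the background. Groups were apart in more genes than were called: 13 of the 39 genes lay above and 1 below hypoxia in every library, where 15.8% of all genes tested did so in each direction. At an unadjusted p under 0.05 limma held 9 of the 39 genes higher and 0 lower; edgeR called 2 and 0, and DESeq2 5 and 0. The median log2 change was 0.13 over the SR genes, 0.04 over the hnRNPs and -0.01 over all genes tested.

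The hypoxia libraries are shared with the comparison above, so the changes of a gene in the 2 comparisons are not independent. The count of 2 higher genes turned on single libraries. It was 0 when hypoxia 8 was left out, or T3 library 12, and 1 when hypoxia 7 was left out, or T3 library 11. It was 6 when T3 library 13 was left out. Over the 11 SR genes the mean relative to normoxia was 0.37, 0.42 and 0.30 in hypoxia with T3 11, 12 and 13, against 0.24, 0.17 and 0.28 in hypoxia 7, 8 and 9. The lowest T3 library, 13, thus stood close to the highest hypoxia library, 9.

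**Figure D3:**
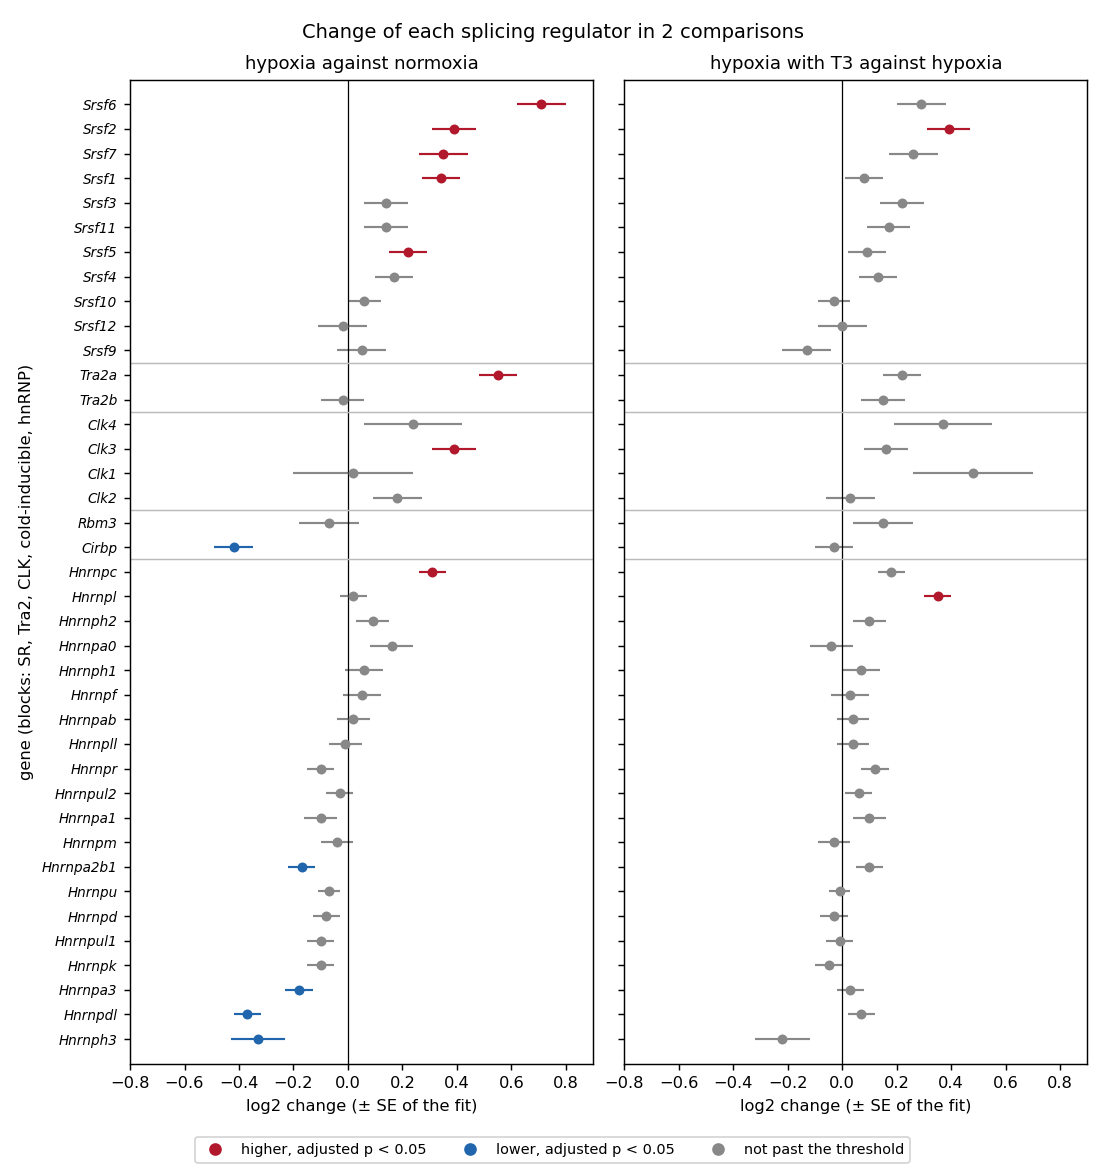
Points are log2 changes and lines are their SE for the 39 genes in hypoxia against normoxia (left) and hypoxia with T3 against hypoxia (right); red and blue mark an adjusted p under 0.05. On the left 8 genes are red and 5 blue, and on the right Srsf2 and Hnrnpl alone are red; both panels use the hypoxia libraries.

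Hnrnpl, which binds CA-rich RNA and lies at chr7:28808541-28822266 on the plus strand (32 exonic bases shared with the antisense gene Gm44702), had 290.3, 281 and 282 CPM in hypoxia with T3, against 215, 218 and 239 CPM in hypoxia. The T3 libraries were above all others, by a log2 change of 0.35 (SE 0.05, adjusted p = 0.0094). The call was lost without hypoxia 8 (adjusted p = 0.054) or hypoxia with T3 12 (0.052), with log2 changes of 0.32 and 0.35. In normoxia it had 223, 217 and 220.1 CPM, and hypoxia overlapped with these (hypoxia against normoxia 0.02, SE 0.05, adjusted p = 0.73).

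Srsf2 had 215, 209.5 and 177 CPM in hypoxia with T3, against 154, 139 and 164 CPM in hypoxia. Each T3 library was above each hypoxia library, and the log2 change was 0.39 (SE 0.08, adjusted p = 0.029). That call was lost without hypoxia 7 (adjusted p = 0.074), hypoxia 8 (0.12), or T3 library 11 (0.13) or 12 (0.11), and with only these 6 libraries fitted (0.052), with log2 changes from 0.33 to 0.40. It was also lost with no filter on low values (0.061) and without a variance trend (0.067). Srsf6 had 194, 198 and 176 CPM in hypoxia with T3, all above the 159, 146 and 159 CPM of hypoxia, and did not pass (0.29, SE 0.09, adjusted p = 0.073). It passed without normoxia 1 (0.032) or hypoxia with T3 13 (0.047), with only these 6 libraries fitted (0.049) and by DESeq2 (0.026).

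Srsf7 had 121, 108 and 94.2 CPM in hypoxia with T3, against 89.3, 86.0 and 92.3 CPM in hypoxia. The groups were just apart, and it passed only without hypoxia with T3 13 or by DESeq2 (0.26 over all libraries, adjusted p = 0.085; 0.018 and 0.037 in these alternatives). Srsf3, the smallest SR protein and an export adaptor, was at 0.22 (adjusted p = 0.091), Tra2a at 0.22 (adjusted p = 0.087), Tra2b at 0.15 (0.25), Srsf11 at 0.17 (0.18) and Hnrnpc at 0.18 (0.067), each without overlap. Without hypoxia with T3 13 Srsf3 and Hnrnpc passed (adjusted p = 0.047 and 0.033), and Hnrnpc also by DESeq2 (0.025). Srsf1, Srsf4 and Srsf5, at 0.08, 0.13 and 0.09, overlapped with hypoxia.

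Clk1 had 62.4, 56.9 and 43.6 CPM in hypoxia with T3, against 38.1, 35.9 and 40.6 CPM in hypoxia. Clk4 had 29.9, 31.4 and 24.96 CPM in hypoxia with T3, against 22.4, 20.2 and 23.3 CPM in hypoxia. All T3 libraries were above all hypoxia libraries in both genes. Neither passed, at 0.48 (SE 0.22, adjusted p = 0.18) and 0.37 (SE 0.18, adjusted p = 0.22). The fit takes its spread from all 3 groups. By limma no CLK gene was past an unadjusted p of 0.05 either, and edgeR and DESeq2 called 0. Clk3 was at 0.16 and Clk2 at 0.03. Cirbp had 55.7, 50.9 and 49.3 CPM in hypoxia with T3, overlapping with hypoxia (-0.03, SE 0.07, adjusted p = 0.84), and Rbm3 had 107, 118 and 100.3 CPM (0.15, SE 0.11, adjusted p = 0.43).

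Hypoxia with T3 against normoxia, which shares its libraries with both comparisons above, gave the most calls. Of the 39 genes 14 were higher and 5 lower, where 25.5% of all genes tested were called higher, 29.5% lower and 55.1% either way. Groups were apart upwards in 13 and downwards in 8 of the 39, where 29.8% and 33.0% of all genes were. The SR genes held 8 of these 14, and Clk3, Clk4, Tra2a, Hnrnpc, Hnrnpl and Hnrnph2 the other 6. Srsf6 was at a log2 change of 0.99, 1.99-fold in group means (adjusted p = 1.1e-05), Srsf2 at 0.78, Tra2a at 0.76 and Srsf7 at 0.62. Srsf1, Srsf3, Srsf11, Srsf5 and Srsf4 followed at 0.41, 0.36, 0.31, 0.31 and 0.30. Srsf10, Srsf12 and Srsf9 did not pass in any comparison and were at 0.04, -0.02 and -0.08 here. All 8 SR calls held in every alternative tried, left-out libraries and equal column sums included.

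Clk3 was at 0.55 (adjusted p = 0.00019) and Clk4 at 0.61 (adjusted p = 0.016, 0.06 without hypoxia with T3 12), while Clk1 was at 0.50 and Clk2 at 0.21 (adjusted p = 0.077 and 0.06). Without normoxia 2, the library in which Clk1 was highest among the 3, both passed (0.002 and 0.011), and Clk1 also passed without hypoxia with T3 13 (0.04). Cirbp was at -0.45 (adjusted p = 0.0004) and Hnrnpdl at -0.30 (adjusted p = 0.00025). Hnrnph3 had 17.2, 16.1 and 17.1 CPM in hypoxia with T3, against 26.6, 23.8 and 24.5 CPM in normoxia (-0.55, adjusted p = 0.00095), without overlap. Hnrnpc was at 0.48 and Hnrnpl at 0.37. The call on Hnrnph2 (0.20) was lost without normoxia 1, normoxia 2 or T3 library 11 or 12. That on Hnrnpk (-0.14) was lost without normoxia 1, normoxia 3 or T3 library 11 or 13, and that on Hnrnpa3 (-0.15) without normoxia 2, normoxia 3 or T3 library 11 or 13. Their adjusted p was then 0.057 to 0.11 for Hnrnph2, 0.07 to 0.096 for Hnrnpk and 0.052 to 0.09 for Hnrnpa3. Hnrnpk and Hnrnpa3 also lost their calls with equal column sums (0.46 and 0.48) and without a variance trend (0.067 and 0.068). By edgeR Hnrnpa3 did not pass (0.05). Tra2b passed without normoxia 3 (adjusted p = 0.014) and Hnrnpa0 without T3 library 11 (0.035), and the count of lower genes was 3 without normoxia 3 or T3 library 11 or 13.

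Genes that work beside the 39 moved in different directions in hypoxia. Of all genes tested, 14.3% were called higher and 19.3% lower in this comparison. In the spliceosome core 12 of 42 genes were higher and 1 lower, and of 23 hnRNP relatives filed under other names 2 were higher and 10 lower. Among 24 neuronal splicing regulators 15 were lower and 3 higher, with a list median of -0.28. With equal column sums the spliceosome core held 26 higher and 1 lower, the hnRNP relatives 7 higher and 4 lower and the neuronal regulators 3 higher and 7 lower, so the majority direction of the hnRNP relatives turned. Under that scaling 3974 of the 12923 genes tested were higher and 1232 lower. The share of hnRNP relatives called higher was then near that over all genes. Without hypoxia 9 the core held 6 higher. The hnRNP relatives held 1 higher without normoxia 1, normoxia 2, hypoxia 7 or hypoxia 9, and the neuronal regulators 1 higher without normoxia 1, hypoxia 9 or T3 library 12.

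Among the neuronal regulators Celf1, a CUG-binding splicing factor, was at -0.56 (adjusted p = 0.00043 by limma), the neuronal RNA-binding gene Elavl2 at -0.58, and Celf3 and Khdrbs3 at -0.42 each. Among the hnRNP relatives Khdrbs1 (Sam68) was at -0.48, Ewsr1 at -0.35 and Fubp1 at -0.36. In the core Prpf4, of the U4/U6 particle, was at 0.43 and the branch-point protein gene Sf3b6 at 0.44, while Prpf31 was at -0.42. All of these passed.

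In the next 3 lists the shares of calls were near those over all genes tested, 14.3% higher and 19.3% lower, or under them, and are no result about the lists. The SR-related and speckle genes had 4 of 24 higher (Acin1 at 0.35, Luc7l2 at 0.25, Srek1 at 0.29 and Pnn, added after its value was seen, at 0.39) and 1 lower (Rsrc1 at -0.66), but 17 higher with equal column sums, and 1 higher without normoxia 1, hypoxia 7 or hypoxia 9 and 2 without normoxia 3. Other kinases and phosphatases of splicing factors had 1 of 15 higher (Ppp1cc at 0.24) and 2 lower (Dyrk2 at -0.40 and Hipk2 at -0.45). With equal column sums they held 2 higher and 0 lower. As deposited they held 1 lower without normoxia 1, normoxia 3 or hypoxia 9, and 2 higher without normoxia 2. Nonsense-mediated decay genes, which degrade poison-exon transcripts, had 3 of 15 higher (Smg8 at 0.30, Magoh at 0.25 and Casc3 at 0.17) and 0 lower by limma, 11 higher with equal column sums and 0 without normoxia 2 or hypoxia 9. Unadjusted, they held 6 higher and 0 lower, with 3 and 0 by edgeR and 5 and 0 by DESeq2. Heat and cold shock partners had 5 of 12 higher and 1 lower, with the heat shock genes Hspa1b at 0.99 and Hspa1a at 0.62. The lower gene was no longer called without normoxia 1 or hypoxia 7, and with equal column sums they held 9 higher and 0 lower. All counts with equal column sums stand beside 3974 higher and 1232 lower of the 12923 genes tested.

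With T3 against hypoxia these lists, apart from the heat and cold shock partners, held 0 or 1 call each, near what the shares over all genes tested (2.73% higher and 3.75% lower) give for lists of this size. The spliceosome core had 1 higher (Snrpb at 0.29), nonsense-mediated decay 1 higher (Smg5 at 0.30), the hnRNP relatives 1 lower (Ptbp3 at -0.46), the neuronal regulators 1 lower (Elavl2 at -0.37) and the kinases 1 lower (Hipk2 at -0.67). By limma no SR-related gene passed, with 4 higher and 2 lower at an unadjusted p under 0.05, none by edgeR and 2 higher and 1 lower by DESeq2. Heat and cold shock partners had 3 of 12 higher, with Hsph1 at 0.37, Hspa1b at 0.74 and Hspa8 at 0.27. None of these lists held a call without hypoxia 8 or without T3 library 11 or 12, and without hypoxia 7 only the heat and cold shock partners did, with 1.

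**Figure D4:**
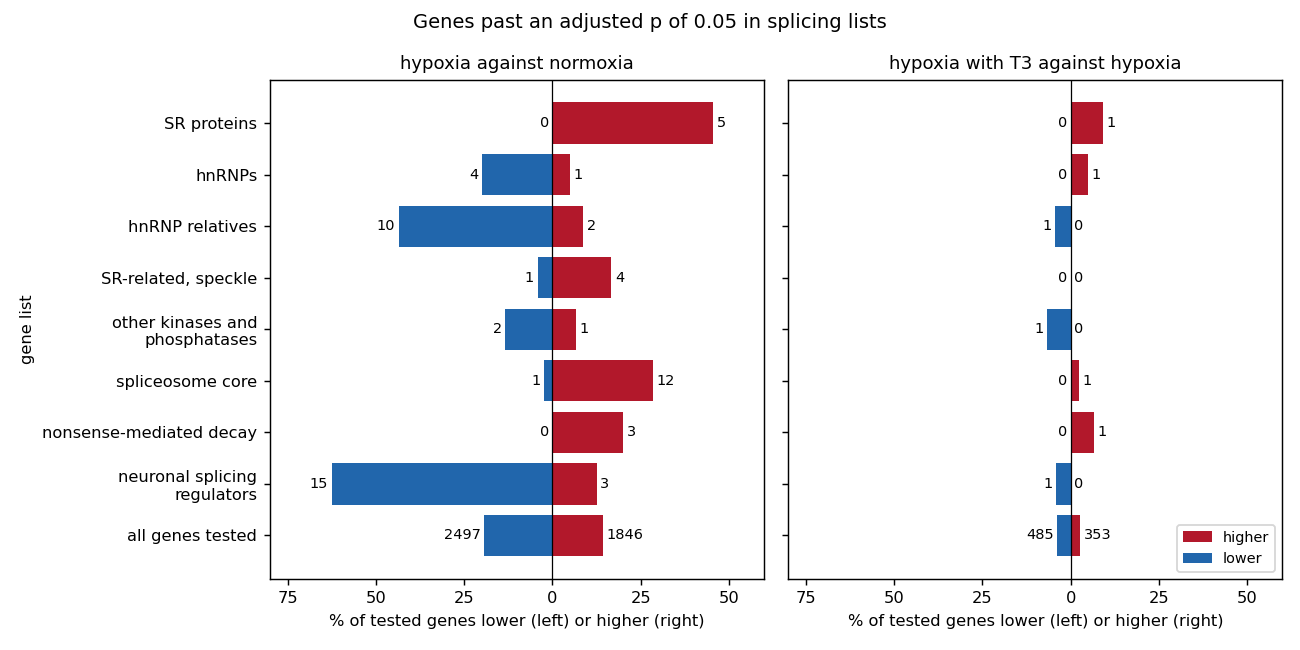
Bars give the percentage of tested genes of each list called lower (left of 0) and higher (right of 0) in hypoxia against normoxia and in hypoxia with T3 against hypoxia, with the number of genes at the bar's end. In hypoxia the SR proteins (5 of 11) and the spliceosome core (12 of 42) have longer bars to the right than all genes tested, and the neuronal splicing regulators (15 of 24) a longer bar to the left.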

How the data were processed

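Poly(A) RNA of 9 libraries was quantified by the authors. The submitters' processing notes name the build mm10 and the tools RSEM (1.2.15), Bowtie2 (2.1.0) and edgeR; annotation release, filters and strand setting are not given in the sources used here. The deposited values are a signal, TMM-normalized CPM, whose columns sum to 945822 to 1091200. In each library 99.84% to 99.99% of values above 0 are whole multiples of 1 read within 0.01 reads, which gave the recovered reads; 35 rows hold 142 other values, among them Hr, Klf9, Vegfa, Epas1, Bdnf, Rn45s and many histone-modifying enzymes, and none is a row of the 39 genes. Reads are not molecules, so depth covers counting error only. An unnamed column (4 numbers) was not used.

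Genes above 1 CPM in at least 3 libraries (12923) were fitted in R 4.3.3 with limma 3.58.1 (variance trend, all 9 libraries, log2(CPM + 1), two-sided, Benjamini-Hochberg over all genes, threshold 0.05). edgeR 4.0.16 quasi-likelihood and DESeq2 1.42.0 were run on recovered reads of rows on the read step as alternatives, beside other pseudocounts, filters, scalings and left-out libraries; the self-test used simulated counts. Hypoxia and T3 columns carry numbers that match no title, so libraries were not paired. Values in every library are given for Cirbp, Rbm3, the CLK and Tra2 genes and, among SR and among hnRNP genes, for up to 4 with the largest called increase and 4 with the largest called decrease in hypoxia against normoxia and in hypoxia with T3 against hypoxia. From other lists up to 4 genes with the smallest adjusted p are named; exceptions are marked in the text. The members and lists were chosen with earlier results of these data known. Promoters come from RefSeq (GRCm38.p6), coordinates from GENCODE M21 (GRCm38).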

Additional observations from a re-analysis of the deposited data

How the results depend on the processing

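No paired analysis was possible because the hypoxia and T3 columns carry numbers that match no replicate number in the titles. In hypoxia against normoxia 9 of 13 called genes kept their calls under every alternative tried, in hypoxia with T3 against hypoxia 0 of 2, and in hypoxia with T3 against normoxia 15 of 19; no called gene changed sign. With equal column sums the genes higher and lower in hypoxia were 17 and 2, and those in hypoxia with T3 against normoxia 22 and 3. Over the 12923 genes tested they were then 3974 and 1232 in hypoxia, and 4527 and 2856 with T3 against normoxia. Median-of-ratios scaling left the counts of the 39 genes as deposited, at 8 and 5 and at 14 and 5. Without a variance trend the lower genes were 3 in each of these comparisons, and with T3 against hypoxia 1 gene was higher; it was also 1 with no filter on low values and 5 by DESeq2. With T3 against hypoxia 838 of all genes were called, but 172 with no filter, 275 with only the 2 groups compared, 234 without a variance trend and 1728 by DESeq2. Leaving out each library gave 7 to 10 higher and 2 to 6 lower genes in hypoxia against normoxia, 0 to 6 higher with T3 against hypoxia, and 12 to 15 higher and 3 to 5 lower with T3 against normoxia. The calls over all genes then ranged from 2959 to 4372, from 31 to 1817 and from 5957 to 7120 in these 3 comparisons, against 4343, 838 and 7117 over all libraries. Among all genes called in hypoxia, 76.3% were higher with equal column sums and 42.5% as deposited; with T3 against hypoxia these shares were 29.0% and 42.1%, and with T3 against normoxia 61.3% and 46.4%. The cause of these changes was not tested. Depth does not limit the 39 genes, whose lowest read count is 299, but 3 libraries a group limit what differences can pass.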
